A study of Mus musculus with 12 samples.

Results

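The change in RNA over 6 days of differentiation was compared between mouse embryonic stem cells that carry Notch1 (WT) and cells deleted for it (Notch1-/-). The quantity followed is the interaction, on the log2 scale: the change from day 0 to day 6 in Notch1-/- less the change in WT. It takes in all 12 samples of the series, 3 in each of 4 groups. WT day 0 and Notch1-/- day 0 are undifferentiated cells of C57BL/6J background, grown with LIF on gelatin or on mouse embryonic fibroblast feeders. WT day 6 and Notch1-/- day 6 are embryoid bodies, aggregates formed in hanging drops under a protocol for cardiac differentiation. The labels leave out how many lines or clones stand behind each genotype, how Notch1 was deleted, and which libraries came from feeders. The series' design text calls the 3 samples of a group biological replicates; whether they were separate cultures is not said, so p-values rest on a spread between samples that could be technical only. Of 40039 loci in the count table, 23991 had enough reads to be tested.

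Notch1 is a receptor in the cell membrane. When a ligand on a neighbouring cell (Dll1, Dll4, Jag1, Jag2) binds it, proteases release its inner part, which enters the nucleus and, with the DNA-binding protein Rbpj, turns on genes of the Hes and Hey families. In embryoid bodies, stem cells leave pluripotency, pass through a state like the primitive streak (T, Mixl1, Mesp1, Eomes) under Wnt and Nodal signals, and give rise to mesoderm, from which heart, blood vessel and blood precursors form, and to endoderm. In the embryo, Notch signalling is known for its roles in blood vessels, heart valves, somites and the nervous system.

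The interaction was called at an adjusted p under 0.05 (edgeR quasi-likelihood test, Benjamini-Hochberg over all loci tested) for 2708 loci, 11.3% of those tested. For 1527 loci (6.36%) the change was higher in Notch1-/-, and for 1181 (4.92%) it was lower. In the fit, the interaction had a median of 0.08 over all loci tested. The called loci were sorted by the calls over time within each genotype, where a missing call does not show that there was no change. Of the 1527, WT fell and Notch1-/- was not called at 653, Notch1-/- rose and WT was not called at 459, and the genotypes moved in opposite directions at 235. Among the 1181, WT rose without a call in Notch1-/- at 539, Notch1-/- fell without a call in WT at 292, and WT rose while Notch1-/- fell at 136. Over all loci tested, 18.4% were called higher and 24.7% lower at day 6 in WT, and 17.2% and 18.7% in Notch1-/-. These views share samples with the interaction and are given side by side only. For the gene lists counted below, the share of members called is given, to be read beside the 11.3% of all loci. Lists and members were chosen with earlier results of these data known. Some genes, such as Bmp2, Snai2, Tdgf1 and Wnt2, stand in several lists. The lists are thus not separate results, and their counts and ranks are descriptions only.

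Most of the called loci were called between genotypes at day 6 and not at day 0. Of the 1527 with a higher change in Notch1-/-, 996 were called higher in Notch1-/- than in WT at day 6 and not called at day 0. Of the 1181 with a lower change, 956 were called lower at day 6 and not called at day 0. Fewer were called at day 0 and not at day 6. From the 1527, 218 were called lower in Notch1-/- at day 0 and not called at day 6. From the 1181, 82 were called higher at day 0 and not called at day 6. A missing call on a day does not show that there was no difference. The background for these views was 3.71% of loci called higher and 5.86% lower in Notch1-/- at day 0, and 13.7% and 14.4% at day 6. At 2493 of the 2708 called loci the replicates were separated, meaning that each of the 9 day 6 minus day 0 differences of one genotype lay above each of the 9 of the other; over all loci tested, 8.82% were separated upwards and 8.34% downwards. The number of calls leaned on single libraries of both days. It rose to 3943 without WT day 0 replicate 2 and to 3621 without Notch1-/- day 0 replicate 1, and fell to 2045 without Notch1-/- day 0 replicate 2. The lowest numbers came on leaving out libraries of day 6. The number was 1434 (747 higher, 687 lower) without WT day 6 replicate 2, 1619 (846 and 773) without WT day 6 replicate 1 and 1787 (974 and 813) without Notch1-/- day 6 replicate 3.

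**Figure D1:**
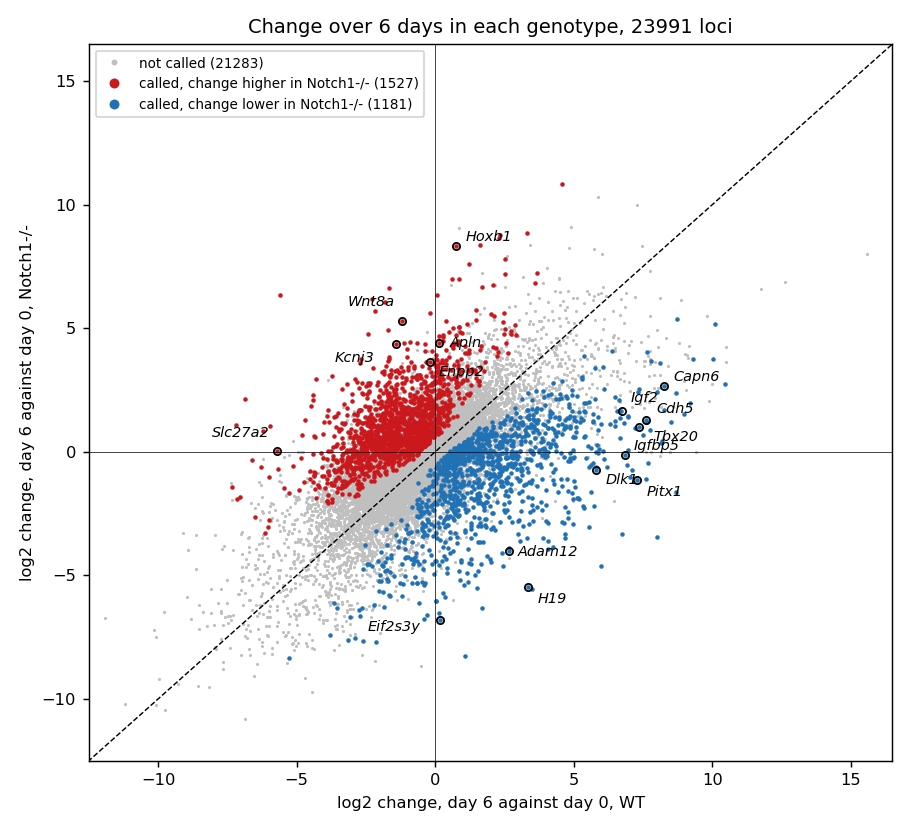
Log2 change from day 0 to day 6 in WT (x axis) and in Notch1-/- (y axis) for the 23991 loci tested; the dashed line marks equal change. Red points are the 1527 loci whose change was called higher in Notch1-/-, blue points the 1181 called lower, and circled genes are described in the text: Wnt8a, Kcnj3, Apln and Enpp2 lie above the line, with changes of -1.42 to 0.13 in WT, while Pitx1, Igfbp5, Dlk1 and Tbx20 lie far to the right, with changes of -1.13 to 1.01 in Notch1-/-.

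Libraries held 100637179 to 134662426 counts in loci. Markers followed the labelled stages: summed over 17 tested genes of naive pluripotency, expression was 3109.7 to 3996 counts scaled to library size (CPM, with TMM factors, the trimmed mean of M values) in WT at day 0 and 3074 to 4801 in Notch1-/- at day 0, and 755 to 977 and 1106 to 1600 at day 6. Notch1, the deleted gene, stood at 61.6, 24.7 and 33.97 CPM in WT at day 0 and 37.96, 30.8 and 31.1 at day 6. In Notch1-/- Notch1 was at 3.799, 3.87 and 4.59 at day 0 and 6.804, 4.901 and 4.95 at day 6. All 6 Notch1-/- libraries were thus below all 6 WT libraries, and none was at 0, so reads from the locus were reduced and not absent. Its log2 interaction was 0.71 (SE 0.40, adjusted p = 0.28), which is not called. Since all these are bulk samples, fewer cells of a type and less RNA per cell cannot be told apart in any result below.

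Fibroblast genes bear on every comparison with day 0, because the cells may have been grown on feeders. A list of 31 tested fibroblast genes (collagens, Postn, Lox, Dcn, Thy1 and others) had a mean log2 CPM of 5.45 to 7.23 in the 3 WT day 0 libraries and 4.93 to 6.86 in Notch1-/- at day 0, against 2.90 to 3.16 and 1.52 to 1.94 at day 6. Its summed level ran from 5007 to 9640 CPM in WT and from 3313 to 8559 CPM in Notch1-/- at day 0, and from 4560 to 5613 and 2400 to 4657 CPM at day 6; no member was without counts in a whole group. By the mean log2 level every day 0 library was above every day 6 library, with unequal levels among them; by the summed level Notch1-/- day 0 replicate 1 was below all WT day 6 libraries and below Notch1-/- day 6 replicates 1 and 2, and WT day 0 replicate 2 lay within the range of WT day 6. The members' median log2 change over 6 days was -3.03 in WT and -4.35 in Notch1-/-. Of the 31 members, 25.8% were called in the interaction, beside 11.3% of all loci. The 8 called were lower (Postn, Prrx1, Twist2, Col3a1, Col1a1, Lum, Fgf7 and Loxl1) and 0 were higher, with a median of -0.72. Postn, a matrix protein of fibroblasts, stood at 41.9, 29.3 and 79.3 CPM in WT at day 0 and 111, 137 and 163 at day 6. In Notch1-/- Postn was at 10.7, 30.4 and 49.6 at day 0 and 0.765, 0.515 and 1.59 at day 6. Its change was 1.45 in WT and -4.97 in Notch1-/-, and the interaction -6.42 (SE 0.79, adjusted p = 0.00043). Col3a1 (-4.64), Prrx1 (-5.55) and Fgf7 (-3.10) were among the others, all with adjusted p under 0.05. With the day 0 library of each genotype that was highest in this list left out (replicate 3 in both), an alternative chosen after seeing the data, 1500 loci were called, 809 higher and 691 lower. The part of fibroblast RNA in the results below was not tested; the genes that lost their call without those libraries included Nr0b1, Lifr, Dnmt3b, Sall2, Tbx5, Prdm6, Kitl, Zic1, T, Smad2, Shh, Sycp1, Igf2bp2, Ccne1, Mcm2, Mcm4, Peg10, 4930526L06Rik, C330024D21Rik, Aplp2, L1td1, Mdn1 and Zfp106. Each of these kept its direction in that fit, which has fewer libraries: T had 4.88 beside 4.68 with all libraries, Sall2 1.60 beside 1.70, Shh -5.27 beside -5.55 and Kitl -1.28 beside -1.62. The number of calls without the 2 libraries was 2 in place of 4 for naive pluripotency, 1 in place of 2 for definitive endoderm and 1 in place of 3 for the hedgehog pathway. Several genes below had the list's order among the Notch1-/- day 0 libraries, lowest in replicate 1 and highest in replicate 3. They include H19, Id2, Igf1, Adam12, Dlk1, Twist1, Tbx20 and an unlinked locus on chromosome X. The part of fibroblast RNA in these levels was likewise not tested.

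Genes of the Y chromosome moved with the genotype as well. Eif2s3y, a Y-linked translation factor, stood at 107, 134 and 106 CPM in WT at day 0 and 134, 122 and 135 at day 6. In Notch1-/- Eif2s3y was at 2.69, 7.56 and 13.6 at day 0 and 0.054, 0.0858 and 0.06701 at day 6. Every WT library was above every Notch1-/- library. In Notch1-/-, its level at day 0 followed the fibroblast list from library to library (lowest in replicate 1, highest in replicate 3 in both), and at day 6 it was under 0.1 CPM. Uty (-6.68, SE 0.70, adjusted p = 0.00020) and Ddx3y (-6.35, SE 0.74, adjusted p = 0.00033), likewise Y-linked, had the same order among the Notch1-/- day 0 libraries; their highest level in Notch1-/- at day 6 was 0.125 CPM. Zfy1, another Y-linked gene, was at 2.91 to 5.47 CPM in WT at day 0 and at most 0.0501 CPM in all Notch1-/- libraries. Y-linked transcripts, which lie on another chromosome than Notch1, thus separated the genotypes, and cell line and genotype cannot be told apart in this design.

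**Figure D2:**
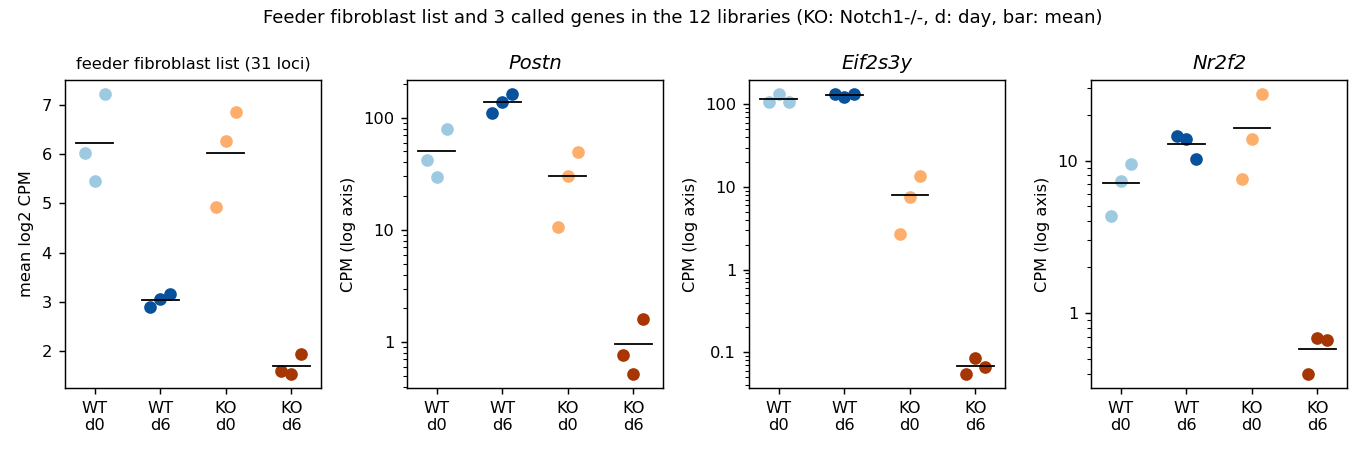
Mean log2 CPM of the 31 tested feeder fibroblast genes and CPM of Postn, Eif2s3y and Nr2f2 (log axes) in each of the 12 libraries; points are libraries and bars are group means. The fibroblast list is high and spread out at day 0 and low at day 6, and in Notch1-/- all 3 genes end below every day 0 library.

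Of 22 tested receptors, ligands and processing enzymes of the Notch pathway, 18.2% were called, beside 11.3% of all loci. In the interaction 3 were called higher, 1 lower and 18 not called, with a median of -0.08. The 3 were ligands. Dll1, a ligand of the primitive streak and presomitic mesoderm, stood at 19.02, 2.702 and 26.6 CPM in WT at day 0 and 3.16, 2.45 and 3.33 at day 6. In Notch1-/- Dll1 was at 2.99, 2.43 and 4.87 at day 0 and 28.7, 21.2 and 20.2 at day 6. At day 6 the 3 Notch1-/- libraries lay above the 3 WT libraries, while at day 0 WT replicates 1 and 3 lay above all Notch1-/- libraries and WT replicate 2 did not. The log2 change was -2.43 in WT and 2.77 in Notch1-/-, an interaction of 5.20 (SE 0.83, adjusted p = 0.0021). Jag1 was at 19.03, 20.6 and 18.6 CPM in WT at day 0 and 17.8, 19.8 and 15.6 at day 6. In Notch1-/- Jag1 was at 10.4, 13.8 and 10.04 at day 0 and 23.3, 21.1 and 21.7 at day 6; all Notch1-/- libraries were below all WT libraries at day 0 and above them at day 6, an interaction of 1.08 (SE 0.24, adjusted p = 0.012). For Jag2 the interaction was 1.53 (SE 0.39, adjusted p = 0.026); the adjusted p rose above 0.05, to at most 0.078, on leaving out WT day 0 replicate 1, WT day 6 replicate 2 or 3, Notch1-/- day 0 replicate 2 or 3, or Notch1-/- day 6 replicate 1 or 2. The locus that joins Dll3, another ligand of presomitic mesoderm, with its neighbour Selenov had an interaction of 4.66 (SE 0.48, adjusted p = 0.00019). Adam10, the protease that makes the first cut in an activated receptor, was called lower, with -0.74 (SE 0.18, adjusted p = 0.018), and was no longer called without WT day 6 replicate 2 (0.065), WT day 6 replicate 3 (0.051) or Notch1-/- day 6 replicate 3 (0.057). The count of called members was 2 without WT day 6 replicate 2 or 3. Receptors Notch2 (-0.33, SE 0.24, adjusted p = 0.42) and Notch3 (-0.27, SE 0.42, adjusted p = 0.74) and the DNA-binding partner Rbpj (-0.14, SE 0.31, adjusted p = 0.83) were not called, and Dll4, the endothelial ligand, had an interaction of -1.18 (SE 0.84, adjusted p = 0.41) at levels under 1.5 CPM.

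Genes listed as Notch targets split. Of 16 tested, 37.5% were called: 6 lower (Bmp2, Hey2, Snai2, Gata2, Id3 and Sox9) and 0 higher. The other 10 were not called, and the median was -0.36. Hey2, a repressor of the Hes and Hey family that works in heart and arteries, stood at 1.51, 2.804 and 1.09 CPM in WT at day 0 and 49.1, 53.9 and 32.8 at day 6. In Notch1-/- Hey2 was at 1.91, 1.18 and 1.08 at day 0 and 3.57, 2.25 and 2.09 at day 6. Every WT day 6 library was above 30 CPM and every other library below 4. WT rose by 4.65 on the log2 scale and the change in Notch1-/- was 0.92, an interaction of -3.73 (SE 0.52, adjusted p = 0.00093). The other family members were not called: Hey1 had an interaction of -0.25 (SE 0.43, adjusted p = 0.77) and rose in both genotypes, and Hes5 had 2.80 (SE 0.98, adjusted p = 0.085) at under 0.5 CPM. Hes1, which shares 99.7% of its exon length with another locus, had no counts and was read from the authors' FPKM values; it stood at 22.7, 13.2 and 22.4 FPKM in WT at day 0 and 50.02, 46.1 and 43.9 at day 6. In Notch1-/- Hes1 was at 9.89, 19.4 and 13.5 at day 0 and 44.5, 45.9 and 31.4 at day 6, with an interaction of 0.21 (SE 0.36, adjusted p = 0.74) in a limma fit on log2(FPKM + 1), a fit added after seeing the data that covered 24917 loci and called 5.43% higher and 6.16% lower. Counted on day 6 alone, Hes1 and Hey1 thus overlapped between genotypes and Hey2 did not.

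The core of the DNA site that Rbpj binds, GTGGGAA, was looked up on both strands of RefSeq promoter windows (250 bases before to 50 after each gene's start, GRCm38.p6). The matches in genes listed as Notch targets are shown because Rbpj is the DNA-binding partner of the pathway. Whether each listed gene is reached through this site was not tested. Of the 20 listed targets, 10 had a window, and 3 of those held a match: Hes5, Hey2 and Hes7. Of all genes with a window 7.25% held one, and of all windows 6.38%. Among genes called in the interaction the share was 8.47% of 838 genes called higher and 8.79% of 660 called lower, beside 7.25% of all genes with a window. Each line gives 30 bases of the gene's strand, 5′ to 3′, with the match in capitals (TTCCCAC is the same core on the other strand):
Hey2 match 1: gcgcggtggcaTTCCCACgcctctgccaac (chr10:30842972-30843001, minus strand)
Hey2 match 2: tgggctgcagcGTGGGAAagaacctccagg (chr10:30842769-30842798, minus strand)
Hes5 match 1: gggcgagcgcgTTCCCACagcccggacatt (chr4:154960686-154960715, plus strand)
Hes5 match 2: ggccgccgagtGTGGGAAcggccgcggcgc (chr4:154960829-154960858, plus strand)
Hes7 match 1: cctcccctcacTTCCCACatttggggctag (chr11:69120262-69120291, plus strand)
The matches in Hey2 begin 207 and 4 bases before its start, those in Hes5 226 and 83 bases before, and that in Hes7 180 bases before. Hes5 and Hey2 thus share a pair of matches, one on each strand, and only the interaction of Hey2 was called among the 3; Hes7 had 1.58 (SE 0.85, adjusted p = 0.26). A match is a description of the letters and not evidence of binding.

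Primitive streak genes went the other way. Of 17 tested, 41.2% were called: 7 higher (Wnt8a, Nodal, Wnt3a, Cdx1, Wnt3, Mesp1 and T) and 0 lower. The other 10 were not called. The median was 1.79, and 5 to 10 were called on leaving out any 1 library. Wnt8a, a Wnt ligand of the streak, stood at 11.9, 10.2 and 9.49 CPM in WT at day 0 and 2.66, 3.87 and 7.13 at day 6. In Notch1-/- Wnt8a was at 1.51, 1.53 and 3.67 at day 0 and 92, 85.1 and 87.6 at day 6. The Notch1-/- day 6 libraries were all above 85 CPM and the other 9 at 12 CPM or less. Wnt8a had the greatest positive interaction of the genes named by size of effect, 6.51 (SE 0.56, adjusted p = 7.3e-05). Wnt3, the ligand that starts the streak, was at 7.15, 5.403 and 4.21 CPM in WT at day 0 and 31.9, 29.6 and 31.2 at day 6. In Notch1-/- Wnt3 was at 2.41, 0.352 and 1.63 at day 0 and 80.3, 94.6 and 37.9 at day 6; it rose in both genotypes, from a lower level and to a higher one in Notch1-/-, with an interaction of 3.13 (SE 0.70, adjusted p = 0.013). Nodal, the ligand that patterns the streak and endoderm, was at 95.1, 92.6 and 109.6 CPM in WT at day 0 and 45.1, 47.8 and 61.2 at day 6. In Notch1-/- Nodal was at 79.9, 86.2 and 63.02 at day 0 and 137, 180.4 and 92.6 at day 6. Its day 6 libraries in Notch1-/- lay above all WT day 6 libraries, and its interaction was 1.79 (SE 0.31, adjusted p = 0.0032). Cdx1, a target of Wnt in posterior tissue, had an interaction of 4.97 (SE 1.03, adjusted p = 0.0090). The locus joining Lefty1, an inhibitor that Nodal induces, with Tmem63a had 3.67 (SE 0.57, adjusted p = 0.0018), from 104 to 451 CPM in WT at day 0, 25.3 to 40.3 in WT at day 6 and 73.0 to 127 in the 6 Notch1-/- libraries.

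Several streak genes share 50.2% or more of their exon length with another locus, so they were read from the deposited FPKM values too. T (Brachyury), a defining transcription factor of the streak, stood at 8.23, 5.12 and 2.97 FPKM in WT at day 0 and 11.7, 11.4 and 28.02 at day 6. In Notch1-/- T was at 0.522, 0.238 and 0.426 at day 0 and 141, 178 and 58.5 at day 6. All 3 Notch1-/- day 6 libraries were above all 9 others, and Notch1-/- day 0 libraries were the lowest. The interaction on log2(FPKM + 1) was 4.92 (SE 0.65, adjusted p = 0.0011). On counts it was 4.68 (SE 1.18, adjusted p = 0.023), and that call was lost without WT day 0 replicate 1 (0.072), WT day 0 replicate 3 (0.063), WT day 6 replicate 1 (0.051) or WT day 6 replicate 2 (0.055), and without the pair of libraries highest in fibroblast genes (0.10). Mixl1, a homeobox gene of the streak, was at 0.329, 0.294 and 0.301 FPKM in WT at day 0 and 7.697, 8.16 and 9.89 at day 6. In Notch1-/- Mixl1 was at 1.04, 0.281 and 0.219 at day 0 and 87.8, 136 and 38.5 at day 6, an interaction of 2.87 (SE 0.53, adjusted p = 0.0069). On counts, Mixl1 stood at 5.48 to 11.3 CPM in every library and had 0.28 (SE 0.29, adjusted p = 0.60), so the 2 tables differ for this gene. Mesp1, which marks the first cardiac mesoderm, was at 0.06004, 0.0103 and 0.1104 FPKM in WT at day 0 and 0.916, 0.751 and 1.35 at day 6. In Notch1-/- Mesp1 was at 0.0943, 0.01604 and 0.0123 at day 0 and 40.5, 35.7 and 19.1 at day 6, with 4.00 (SE 0.34, adjusted p = 6.7e-05). The organizer gene Gsc, with no counts, was at 0.2698, 0.112 and 0.181 FPKM in WT at day 0 and 1.15, 1.73 and 1.77 at day 6. In Notch1-/- Gsc was at 0.675, 0.118 and 0.143 at day 0 and 19.7, 16.3 and 8.99 at day 6, with 2.48 (SE 0.37, adjusted p = 0.0024). Each of these genes was highest in the 3 Notch1-/- day 6 libraries with no overlap. Tdgf1 (Cripto), the co-receptor of Nodal, followed another course: it was at 484, 361 and 342 FPKM in WT at day 0 and 46.9, 43.4 and 65.4 at day 6. In Notch1-/- Tdgf1 was at 359, 355 and 348 at day 0 and 387, 359 and 265 at day 6. It was high in 9 libraries and low in the 3 of WT at day 6, an interaction of 2.82 (SE 0.27, adjusted p = 0.00013). Eomes (2.06, SE 0.59, adjusted p = 0.048) was no longer called with a pseudocount of 0.1 (adjusted p = 0.12). Foxa2, a gene of anterior streak and endoderm, had an interaction on counts of 0.01 (SE 0.92, adjusted p = 1.00), with 13.2 to 23.9 CPM in WT and 12 to 42.1 CPM in Notch1-/- at day 6.

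**Figure D3:**
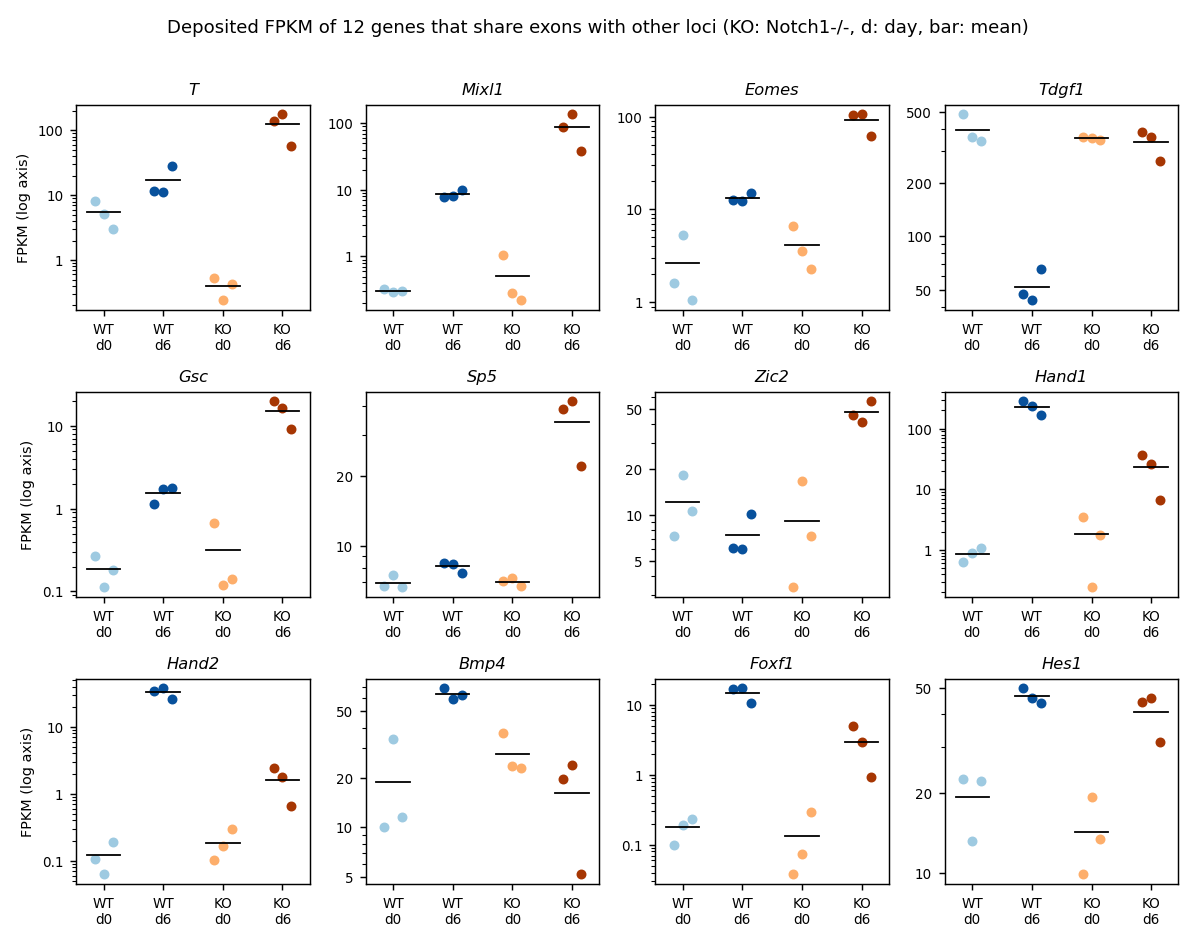
Deposited FPKM values (log axes) of 12 genes that share 50.2% to 100% of their exon length with another locus, in each of the 12 libraries; points are libraries and bars are group means. T, Mixl1, Eomes, Gsc, Sp5 and Zic2 are highest in Notch1-/- day 6, Tdgf1 is low only in WT day 6, Hand1, Hand2, Bmp4 and Foxf1 are highest in WT day 6, and Hes1 overlaps between genotypes on both days.

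By calls, Wnt ligands leaned in the same direction, with Wnt8a, Wnt3a and Wnt3 shared by both lists. The summed level of the ligands did not: it was 77.4 to 92.3 CPM in WT at day 0 and 337 to 406 at day 6. In Notch1-/- the sum was 74.2 to 110 CPM at day 0 and 197 to 405 at day 6, overlapping WT on both days. Of 17 tested, 58.8% were called: 8 higher (Wnt8a, Wnt2b, Wnt3a, Wnt10b, Wnt7a, Wnt9b, Wnt3 and Wnt5b) and 2 lower (Wnt7b and Wnt2). The other 7 were not called, and the median was 0.96. Wnt2b, 86.3% of whose exon length is shared, stood at 0.198, 0.247 and 0.245 CPM in WT at day 0 and 0.397, 0.398 and 0.504 at day 6. In Notch1-/- Wnt2b was at 0.258, 0.325 and 0.271 at day 0 and 10.3, 8.87 and 5.33 at day 6; its 3 Notch1-/- day 6 libraries exceeded 5 CPM and no other library reached 1, an interaction of 3.92 (SE 0.42, adjusted p = 0.00023). Wnt3a (3.46, SE 0.66, adjusted p = 0.0060) and Wnt10b (1.87, SE 0.38, adjusted p = 0.0080) moved at lower levels. Wnt7b was called lower with -2.10 (SE 0.40, adjusted p = 0.0056); it fell in both genotypes and further in Notch1-/-. Genes that answer Wnt or feed back on it were mixed. Of 17 tested, 29.4% were called, 4 higher and 1 lower, and 12 were not called, with a median of 0.02. Frzb, a secreted Wnt antagonist, was at 1.15, 0.435 and 3.18 CPM in WT at day 0 and 18.9, 22.4 and 16.4 at day 6. In Notch1-/- Frzb was at 0.575, 0.765 and 1.13 at day 0 and 109.9, 95.6 and 74.1 at day 6. It rose in both genotypes and stood above 70 CPM in each Notch1-/- day 6 library, with an interaction of 3.22 (SE 0.71, adjusted p = 0.012). Nkd2, an inhibitor inside the cell, had 1.98 (SE 0.41, adjusted p = 0.0085). Apcdd1, a membrane inhibitor, was lower, with -2.21 (SE 0.40, adjusted p = 0.0042). Axin2, a widely used readout of Wnt signalling, had 1.21 (SE 0.45, adjusted p = 0.10), which is not called, and Sp5, read from FPKM, was at 6.68, 7.47 and 6.61 FPKM in WT at day 0 and 8.43, 8.36 and 7.64 at day 6. In Notch1-/- Sp5 was at 7.02, 7.24 and 6.73 at day 0 and 38.9, 42.04 and 22.01 at day 6, an interaction of 1.88 (SE 0.27, adjusted p = 0.0020).

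Genes of primed epiblast, the state after naive pluripotency, were all positive: 3 of 7 (42.9%) were called higher, 0 lower, and the median was 1.70. Fgf5, its classical marker, stood at 1.57, 5.96 and 5.99 CPM in WT at day 0 and 4.85, 8.24 and 15.7 at day 6. In Notch1-/- Fgf5 was at 7.22, 6.43 and 13.5 at day 0 and 160.2, 113 and 158 at day 6. It was above 110 CPM in each Notch1-/- day 6 library and under 16 elsewhere, an interaction of 2.89 (SE 0.70, adjusted p = 0.019), no longer called without WT day 6 replicate 2 (0.058). Dnmt3b, the de novo DNA methyltransferase, was at 229, 406 and 645 CPM in WT at day 0 and 181, 203 and 219 at day 6. In Notch1-/- Dnmt3b was at 695, 364 and 571 at day 0 and 1043, 794 and 1927 at day 6, an interaction of 2.29 (SE 0.53, adjusted p = 0.015), which became 0.071 in adjusted p without the 2 day 0 libraries highest in fibroblast genes. Sall2 had 1.70 (SE 0.43, adjusted p = 0.025) and lost its call without WT day 0 replicate 3 (0.063) or without WT day 6 replicate 1 (0.060), 2 (0.057) or 3 (0.064). The number called was 1 without WT day 6 replicate 2, and 1 without the 2 day 0 libraries highest in fibroblast genes. Zic2, read from FPKM, was at 7.28, 18.5 and 10.6 FPKM in WT at day 0 and 6.09, 6.02 and 10.2 at day 6. In Notch1-/- Zic2 was at 3.35, 16.7 and 7.33 at day 0 and 45.8, 41.3 and 56.2 at day 6, with 3.07 (SE 0.65, adjusted p = 0.014). Of 17 naive pluripotency genes tested, 14 fell in WT and 14 in Notch1-/-. The share called in the interaction was 23.5%, beside 11.3% of all loci. In the interaction 2 were called higher (Tdgf1 and Nr0b1), 2 lower (Dppa3 and Lifr) and 13 not called, with a median of 0.51; Zfp42 (0.65, SE 0.31, adjusted p = 0.21), Klf4 (0.55, SE 0.46, adjusted p = 0.50) and Esrrb (1.09, SE 0.34, adjusted p = 0.060) did not pass. That count was 1 without WT day 6 replicate 1 or 2 or Notch1-/- day 6 replicate 3, and 2 without Notch1-/- day 0 replicate 3 or Notch1-/- day 6 replicate 2. Tet1, a DNA demethylase abundant in stem cells, was at 919, 1129.9 and 939.5 CPM in WT at day 0 and 187, 176 and 189 at day 6. In Notch1-/- Tet1 was at 1254, 1475 and 896 at day 0 and 417, 589 and 830.3 at day 6. It fell in both genotypes and less so in Notch1-/-, an interaction of 1.46 (SE 0.32, adjusted p = 0.012), and Cdh1 (E-cadherin), which holds epithelial cells together, had 1.07 (SE 0.22, adjusted p = 0.0081) with 224 to 316 CPM in WT and 591 to 827 in Notch1-/- at day 6.

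**Figure D4:**
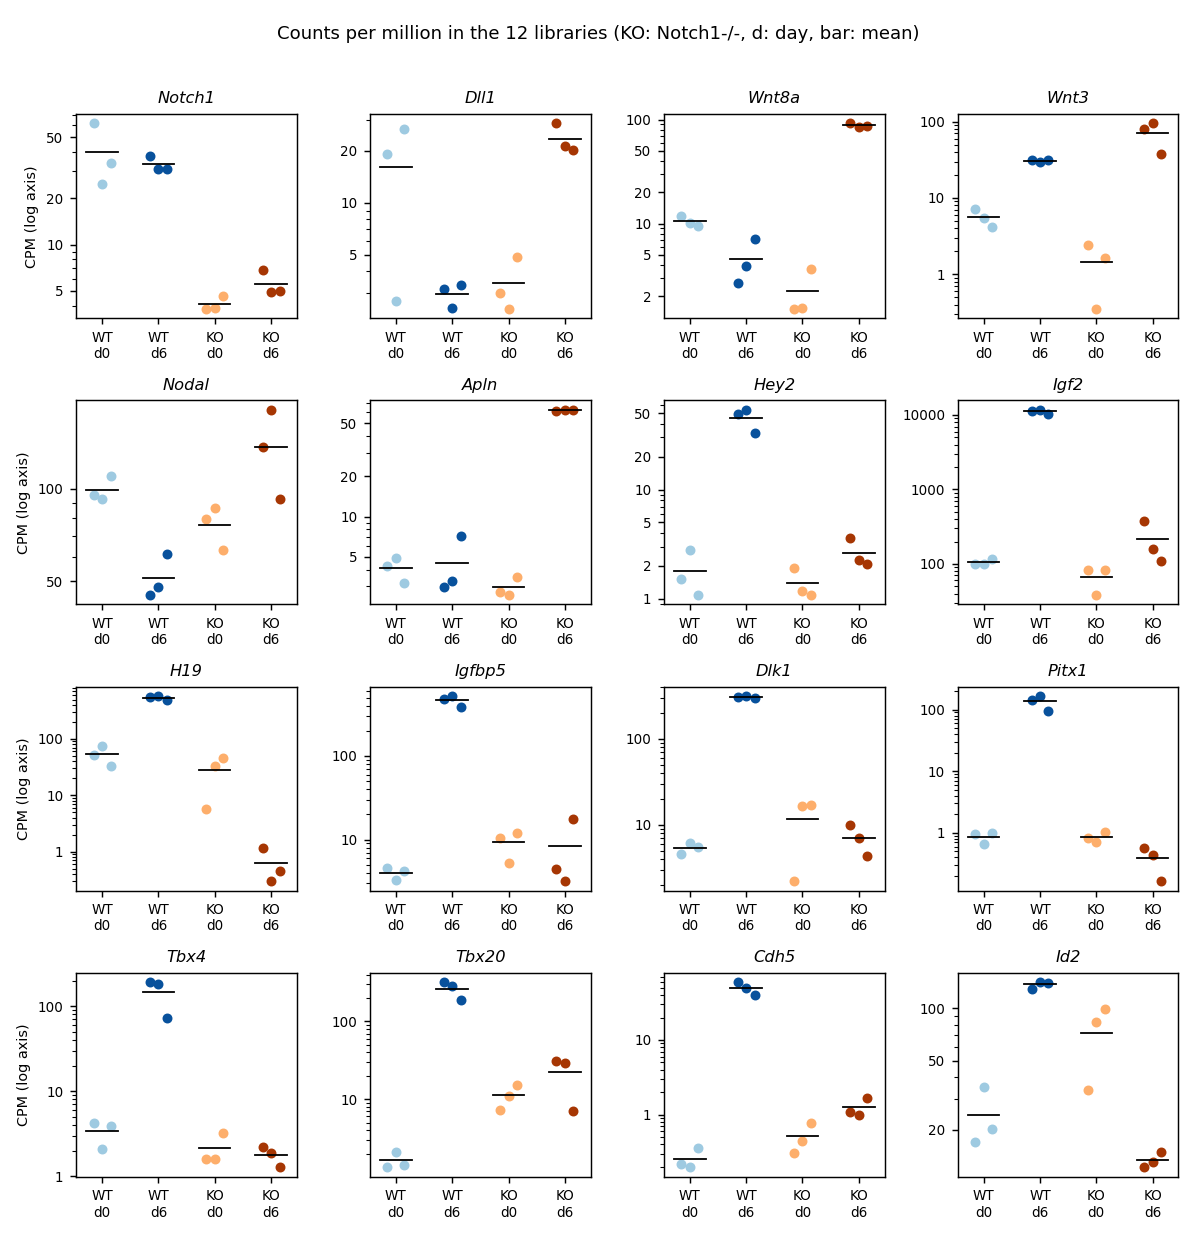
CPM (log axes) of 16 genes in each of the 12 libraries; points are libraries and bars are group means. Wnt8a, Apln and Wnt3 are highest in Notch1-/- day 6, whereas Hey2, Igf2, H19, Igfbp5, Dlk1, Pitx1, Tbx4, Tbx20 and Cdh5 are highest in WT day 6 with no overlap with any other group.

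Other genes with great positive interactions had varied roles. Apln, the peptide ligand of the apelin receptor, stood at 4.25, 4.9 and 3.198 CPM in WT at day 0 and 2.99, 3.32 and 7.198 at day 6. In Notch1-/- Apln was at 2.74, 2.58 and 3.53 at day 0 and 61.9, 62.99 and 62.6 at day 6. Its 3 Notch1-/- day 6 libraries lay within 61.9 to 63.0 CPM and no other library passed 8, an interaction of 4.28 (SE 0.43, adjusted p = 0.00016). Kcnj3, a potassium channel subunit of heart and neurons, was at 9.26, 6.66 and 12.1 CPM in WT at day 0 and 2.16, 2.85 and 5.44 at day 6. In Notch1-/- Kcnj3 was at 2.44, 3.76 and 3.16 at day 0 and 47.8, 52.1 and 93.2 at day 6, with 5.79 (SE 0.54, adjusted p = 0.00011). Slc27a2, a fatty acid transporter and acyl-CoA synthetase, was at 30.9, 67.6 and 74.5 CPM in WT at day 0 and 0.687, 1.01 and 1.62 at day 6. In Notch1-/- Slc27a2 was at 14.8, 28.6 and 54.3 at day 0 and 22.9, 23.2 and 53.9 at day 6. It fell in WT by 5.71 and its change in Notch1-/- was 0.03, so that only the WT day 6 libraries were low, an interaction of 5.74 (SE 0.75, adjusted p = 0.00061). Enpp2 (autotaxin), which makes lysophosphatidic acid, was at 12.4, 9.903 and 26.4 CPM in WT at day 0 and 12.8, 13.1 and 16.7 at day 6. In Notch1-/- Enpp2 was at 4.09, 4.69 and 9.38 at day 0 and 59.3, 77.5 and 91.1 at day 6, with 3.84 (SE 0.54, adjusted p = 0.00097). The adhesion molecules of neurons Nfasc (3.92, SE 0.44, adjusted p = 0.00025) and Cntn2 (3.78, SE 0.57, adjusted p = 0.0015) fell in WT and rose in Notch1-/-. Mmp25, a membrane protease (4.47), Actn3, an actinin of fast muscle (3.78), Fam57b (3.86) and Ppp4r4 (3.65) completed the group, all with adjusted p of 0.0035 or less. Of 21 tested neural genes, 23.8% were called, beside 11.3% of all loci: 4 higher (Stmn2, Map2, Elavl3 and Nes) and 1 lower (Zic1). The other 16 were not called, and the median was 0.55. Stmn2, a tubulin-binding protein, was at 186, 257 and 269.7 CPM in WT at day 0 and 25.3, 27.8 and 24.9 at day 6. In Notch1-/- Stmn2 was at 372, 404 and 322 at day 0 and 137, 171 and 140.0 at day 6. It fell in both genotypes and less so in Notch1-/-, an interaction of 1.90 (SE 0.22, adjusted p = 0.00033). Pax6, a neural transcription factor (0.46, SE 0.84, adjusted p = 0.79), was not called.

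Imprinted genes are expressed from 1 parental copy, and many of them control growth. Of the lists, they had the highest share of called members, 71.4%, beside 11.3% of all loci. That rank only describes lists chosen with earlier results known. Several called members are neighbours, such as H19 with Igf2 and Dlk1 with Rtl1 and Mirg, so their calls are not separate results. Of 21 tested, 15 were called lower, 0 higher and 6 not called, with a median of -2.26 against 0.08 over all loci, and 13 to 16 were called on leaving out any 1 library (12 without the 2 libraries highest in fibroblast genes). H19, a long noncoding RNA next to Igf2 (mm9, chr7:149761436-149764051), stood at 50.7, 74.7 and 33.5 CPM in WT at day 0 and 555, 582 and 491 at day 6. In Notch1-/- H19 was at 5.64, 32.6 and 45.8 at day 0 and 1.17, 0.297 and 0.447 at day 6. It rose in WT by 3.36 and fell in Notch1-/- by 5.47 on the log2 scale, and every Notch1-/- day 6 library was below every other library. In Notch1-/- at day 0 its level had the order of the fibroblast list, lowest in replicate 1 and highest in replicate 3. In WT at day 0 it was lowest in replicate 3, the highest in that list. The interaction of -8.83 (SE 0.95, adjusted p = 0.00023) was the most negative of the genes named by size of effect. Igf2, the growth factor encoded beside it (chr7:149836673-149846940), was at 100.2, 101 and 117 CPM in WT at day 0 and 11337, 11806 and 10456 at day 6. In Notch1-/- Igf2 was at 82.5, 38.1 and 82.7 at day 0 and 374, 158 and 111 at day 6. No Notch1-/- library came near those of WT at day 6, an interaction of -5.06 (SE 0.56, adjusted p = 0.00025). In the deposited FPKM table Igf2 is listed at 0 in WT at day 6, against these counts, and its direction reverses there. Igf2r, the receptor that clears Igf2 (70.2% of its exon length is shared), was at 433, 254 and 292 CPM in WT at day 0 and 1685, 1754 and 1638 at day 6. In Notch1-/- Igf2r was at 268, 253 and 231 at day 0 and 303, 329 and 271 at day 6, an interaction of -2.11 (SE 0.24, adjusted p = 0.00032), and its antisense partner Airn had -2.45 (SE 0.59, adjusted p = 0.019); whether the counting used strand is not said, so reads of the pair cannot be told apart.

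The genes of the Dlk1 to Dio3 cluster on chromosome 12 described here were each called lower. Dlk1, a membrane protein that resembles Notch ligands (chr12:110690452-110701546), stood at 4.57, 6.14 and 5.59 CPM in WT at day 0 and 305, 315 and 295 at day 6. In Notch1-/- Dlk1 was at 2.22, 16.5 and 16.98 at day 0 and 9.88, 7.16 and 4.39 at day 6. Only WT day 6 was high, above 290 CPM in each library, an interaction of -6.55 (SE 0.79, adjusted p = 0.00038). Rtl1, which acts in placental vessels, was at 15.7, 23 and 15.1 CPM in WT at day 0 and 36.3, 36.3 and 36.8 at day 6. In Notch1-/- Rtl1 was at 1.23, 1.25 and 2.73 at day 0 and 0.036, 0.03902 and 0.0447 at day 6, with -6.42 (SE 0.49, adjusted p = 5.5e-05), and Mirg, a noncoding host of many microRNAs, was at 42.3, 83.9 and 64.7 CPM in WT at day 0 and 139.6, 140.3 and 127 at day 6. In Notch1-/- Mirg was at 1.51, 2.99 and 4.41 at day 0 and 0.441, 0.273 and 0.231 at day 6, with -4.34 (SE 0.51, adjusted p = 0.00036). The merged locus of the noncoding genes Meg3 and Rian was at 413, 453 and 535 CPM in WT at day 0 and 1134, 1209.9 and 1125 at day 6. In Notch1-/- the locus was at 14.6, 49.6 and 76.1 at day 0 and 2.91, 1.75 and 1.32 at day 6, with -5.87 (SE 0.65, adjusted p = 0.00025). For Rtl1, Mirg and Meg3 with Rian the Notch1-/- libraries were below the WT libraries already at day 0, and at day 0 in Notch1-/- they were lowest in replicate 1 and highest in replicate 3, the order of the fibroblast list. Rtl1 shares 74.9% of its exon length, and its direction reverses with FPKM and a pseudocount of 0.1 (0.20). Some imprinted genes elsewhere, among them Peg10, Grb10 and Mest, rose in WT and were not called over time in Notch1-/-. Peg10, a retrotransposon-derived gene of placenta, was at 1025, 2555 and 1719 CPM in WT at day 0 and 9241, 9331 and 6230.3 at day 6. In Notch1-/- Peg10 was at 1282, 669 and 1389 at day 0 and 1029, 1103 and 534 at day 6; its interaction of -2.55 (SE 0.51, adjusted p = 0.0077) became 0.051 in adjusted p without the 2 libraries highest in fibroblast genes, and its direction reverses in the FPKM table (4.08). Grb10, a brake on insulin and IGF receptors (-2.29, SE 0.41, adjusted p = 0.0042), and Mest (-3.57, SE 0.51, adjusted p = 0.0010) were called too. Peg3, with -1.50 (SE 0.53, adjusted p = 0.092), and Cdkn1c, with -0.73 (SE 0.44, adjusted p = 0.32), were not.

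MicroRNAs themselves were not measured. Among the matches kept, 5 of the 225 called genes in the lists or named here held mature microRNAs by position (RefSeq table, GRCm38.p6), 41 in all. These lie on chromosomes 1, 7 and 12. Matches on another chromosome were left out before counting, so the totals and the direction of the hosts do not cover it. The 5 are H19, Meg3, Rian, Mirg and Dnm3os, all called lower. Meg3 and Rian form a merged locus with a single test (-5.87), so their calls are not separate results. Mir124a-1hg, a host that was called higher, had no match in the table. The mature sequences below are shown because the host transcripts moved; capitals mark the seed, bases 2 to 8, which pairs with targets:
mmu-miR-675-5p: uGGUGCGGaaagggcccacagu (in H19)
mmu-miR-675-3p: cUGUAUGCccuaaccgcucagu (in H19)
mmu-miR-770-5p: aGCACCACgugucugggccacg (in Meg3)
mmu-miR-370-3p: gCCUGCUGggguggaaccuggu (in Rian)
mmu-miR-410-3p: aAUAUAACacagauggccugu (in Mirg)
mmu-miR-154-5p: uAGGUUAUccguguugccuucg (in Mirg)
mmu-miR-134-5p: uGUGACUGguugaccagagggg (in Mirg)
mmu-miR-199a-5p: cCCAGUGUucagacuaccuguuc (in Dnm3os)
mmu-miR-214-3p: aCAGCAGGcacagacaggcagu (in Dnm3os)
No 2 of these 9 share a seed. Among all 41, mmu-miR-453 and mmu-miR-496a-5p, both in Mirg, have the same seed, GGUUGCC. Dnm3os, a noncoding RNA of mesenchyme, stood at 11.6, 10.2 and 31.5 CPM in WT at day 0 and 3.28, 4.75 and 5.03 at day 6. In Notch1-/- Dnm3os was at 7.44, 19.1 and 25.9 at day 0 and 0.342, 0.219 and 0.491 at day 6; it fell in both genotypes and further in Notch1-/-, to under 0.5 CPM, an interaction of -3.61 (SE 0.72, adjusted p = 0.0074), and its day 0 libraries again followed the fibroblast list.

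In the IGF axis 5 of 16 genes (31.2%) were called lower (Igf2, Igfbp5, Igf2r, Igf1 and Igf2bp2) and 0 higher. The other 11 were not called, and the median was -0.26. Igfbp5, a secreted protein that binds IGFs (chr1:72904506-72921744), stood at 4.55, 3.32 and 4.22 CPM in WT at day 0 and 475, 525 and 387 at day 6. In Notch1-/- Igfbp5 was at 10.6, 5.27 and 11.9 at day 0 and 4.43, 3.17 and 17.7 at day 6. WT rose by 6.84 and the change in Notch1-/- was -0.13, an interaction of -6.97 (SE 0.77, adjusted p = 0.00025). Igf1 was at 0.556, 0.707 and 0.498 CPM in WT at day 0 and 9.19, 5.67 and 4.94 at day 6. In Notch1-/- Igf1 was at 0.288, 1.51 and 2.59 at day 0 and 0.189, 0.0858 and 0.715 at day 6, with -5.62 (SE 1.07, adjusted p = 0.0057). The receptor Igf1r had 0.00 (SE 0.30, adjusted p = 1.00) and was not called.

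Genes of lateral plate, allantois and hindlimb mesoderm, transcription factors, ligands and adhesion molecules among them, had the lowest median of the lists, -3.70. Of 12 tested, 66.7% were called: 8 lower (Pitx1, Tbx4, Spin2c, Hoxd13, Prrx1, Itga4, Vcam1 and Wnt2) and 0 higher. The other 4 were not called. On leaving out any 1 library, 7 to 9 were called. Pitx1, which sets hindlimb identity (chr13:55926415-55932970), stood at 0.951, 0.665 and 1.004 CPM in WT at day 0 and 145, 168 and 96.5 at day 6. In Notch1-/- Pitx1 was at 0.823, 0.712 and 1.04 at day 0 and 0.576, 0.445 and 0.164 at day 6. The WT day 6 libraries were near or above 100 CPM and the other 9 at 1.04 CPM or less, an interaction of -8.42 (SE 0.54, adjusted p = 2.5e-05). Tbx4, a T-box factor of hindlimb and allantois, was at 4.24, 2.096 and 3.94 CPM in WT at day 0 and 193, 181 and 72.5 at day 6. In Notch1-/- Tbx4 was at 1.59, 1.6 and 3.23 at day 0 and 2.21, 1.89 and 1.27 at day 6, with -5.70 (SE 0.60, adjusted p = 0.00020). Prrx1 and Vcam1, which fibroblasts also express, were high at day 0 already: Prrx1 was at 64.9, 42.7 and 128 CPM in WT at day 0 and 56.1, 58.2 and 42.5 at day 6. In Notch1-/- Prrx1 was at 39.96, 162 and 218 at day 0 and 2.32, 1.701 and 1.96 at day 6. Hand1 and Hand2, which build heart and extraembryonic mesoderm, had no counts. Hand1 was at 0.6395, 0.889 and 1.08 FPKM in WT at day 0 and 284, 239 and 171 at day 6. In Notch1-/- Hand1 was at 3.47, 0.24 and 1.79 at day 0 and 36.6, 26.3 and 6.55 at day 6, an interaction of -3.94 (SE 0.82, adjusted p = 0.012), and Hand2 at 0.107, 0.0625 and 0.192 FPKM in WT at day 0 and 34.2, 37.8 and 26.3 at day 6. In Notch1-/- Hand2 was at 0.103, 0.164 and 0.295 at day 0 and 2.45, 1.78 and 0.654 at day 6, with -3.82 (SE 0.35, adjusted p = 0.00011). Foxf1, a gene of lateral plate and allantois, was at 0.0989, 0.194 and 0.236 FPKM in WT at day 0 and 16.8, 17.3 and 10.7 at day 6. In Notch1-/- Foxf1 was at 0.0376, 0.0729 and 0.291 at day 0 and 5.01, 2.96 and 0.944 at day 6; its -2.07 (SE 0.49, adjusted p = 0.022) became 0.10 in adjusted p with a pseudocount of 0.1.

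Most called Hox genes were lower. Of 9 Hox genes tested alone, 55.6% were called: 4 lower (Hoxd13, Hoxd12, Hoxd8 and Hoxa7) and 1 higher (Hoxb1). The other 4 were not called. Hoxd13, the last of the Hoxd cluster, stood at 2.005, 2.58 and 2.15 CPM in WT at day 0 and 31.3, 34.1 and 28.7 at day 6. In Notch1-/- Hoxd13 was at 1.32, 6.65 and 6.42 at day 0 and 0.846, 1.67 and 0.953 at day 6, an interaction of -5.86 (SE 0.68, adjusted p = 0.00033). The merged locus of Hoxd9, Hoxd10 and Hoxd11 was at 3.805, 2.97 and 3.27 CPM in WT at day 0 and 109, 98.7 and 69.4 at day 6. In Notch1-/- the locus was at 4.13, 7.32 and 8.11 at day 0 and 1.15, 1.62 and 0.305 at day 6. Only WT day 6 was above 10 CPM, with -7.46 (SE 0.66, adjusted p = 0.00010). Merged Hoxd1, Hoxd3 and Hoxd4 had -3.82 (SE 0.52, adjusted p = 0.00077), and merged Hoxb8 and Hoxb9 -3.17 (SE 0.41, adjusted p = 0.00056). The noncoding neighbours of the Hoxa cluster Hoxa11os (-8.07, SE 0.63, adjusted p = 5.7e-05) and Hottip (-7.08, SE 1.20, adjusted p = 0.0029) were lower as well, Hottip at under 1 CPM in every library. Hoxb1, one of the first Hox genes to come on in the embryo, went against them: it stood at 0.271, 0.273 and 0.523 CPM in WT at day 0 and 0.902, 0.339 and 0.564 at day 6. In Notch1-/- Hoxb1 was at 0.0397, 0.00879 and 0.0802 at day 0 and 14.4, 22.9 and 3.86 at day 6. The Notch1-/- day 6 libraries were above 3.8 CPM and no other reached 1, an interaction of 7.56 (SE 1.00, adjusted p = 0.00065).

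In the BMP pathway 47.6% of 21 genes were called: 9 lower (Id2, Bmp2, Bambi, Smad6, Smad9, Bmpr2, Smad7, Id3 and Bmp5) and 1 higher (Chrd). The other 11 were not called, and the median was -0.95. The ligand Bmp2 stood at 3.498, 4.46 and 3.79 CPM in WT at day 0 and 87.4, 105 and 91.1 at day 6. In Notch1-/- Bmp2 was at 5.36, 7.98 and 10.9 at day 0 and 24.8, 19.1 and 8.93 at day 6; it rose in WT by 4.59 and in Notch1-/- by 1.12, an interaction of -3.47 (SE 0.46, adjusted p = 0.00069). Bmp4, the ligand that induces mesoderm, had no counts and was at 10.1, 34.4 and 11.5 FPKM in WT at day 0 and 69.1, 59.3 and 63.2 at day 6. In Notch1-/- Bmp4 was at 36.9, 23.5 and 22.8 at day 0 and 19.5, 23.8 and 5.21 at day 6, with -2.86 (SE 0.75, adjusted p = 0.035). Id2, a target that blocks bHLH factors, was at 16.98, 35.3 and 20.2 CPM in WT at day 0 and 129.9, 142 and 139.7 at day 6. In Notch1-/- Id2 was at 33.8, 83.4 and 99.6 at day 0 and 12.1, 13.1 and 14.95 at day 6. It rose in WT and fell in Notch1-/-, and no Notch1-/- day 6 library reached any WT day 0 library, an interaction of -4.94 (SE 0.50, adjusted p = 0.00016). The inhibitors Smad6 (-3.09, SE 0.49, adjusted p = 0.0020) and Bambi (-2.66, SE 0.40, adjusted p = 0.0015), which BMP signals induce, rose by less in Notch1-/-. Chrd, an extracellular antagonist of BMP, was called higher with 1.81 (SE 0.44, adjusted p = 0.019). The type I receptor Bmpr1a was not called (-0.69, SE 0.22, adjusted p = 0.056).

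Every endothelial gene that was called was lower. Of 21 tested, 47.6% were called: 10 lower (Cdh5, Erg, Fli1, Sox7, Tie1, Sox18, Egfl7, Tek, Cldn5 and Nos3) and 0 higher. The other 11 were not called. The median was -1.59, and 7 to 10 were called on leaving out any 1 library. Cdh5 (VE-cadherin), the junction protein of endothelium (chr8:106625525-106668403), stood at 0.2195, 0.196 and 0.354 CPM in WT at day 0 and 59.9, 49.02 and 39.7 at day 6. In Notch1-/- Cdh5 was at 0.307, 0.4396 and 0.782 at day 0 and 1.09, 0.976 and 1.68 at day 6. The WT day 6 libraries were at 39.7 CPM or more and no other reached 2, an interaction of -6.30 (SE 0.51, adjusted p = 6.6e-05). The ETS factors Fli1 (-6.03, SE 0.68, adjusted p = 0.00027) and Erg (-5.27, SE 0.59, adjusted p = 0.00025), which keep endothelial identity, and Sox7 (-5.48, SE 0.81, adjusted p = 0.0013) and Tie1 (-5.42, SE 0.84, adjusted p = 0.0018) followed. Kdr, the VEGF receptor that marks early mesoderm as well as endothelium, was an exception: it stood at 1.75, 6.27 and 2.54 CPM in WT at day 0 and 318, 256 and 178 at day 6. In Notch1-/- Kdr was at 2.33, 1.92 and 2.65 at day 0 and 253, 224 and 69.4 at day 6, rose in both genotypes and had an interaction of 0.15 (SE 0.67, adjusted p = 0.92). Pecam1, which stem cells also express, was at 146, 79.9 and 102 CPM in WT at day 0 and 61.2, 55.6 and 51.4 at day 6. In Notch1-/- Pecam1 was at 124, 58.7 and 73.5 at day 0 and 24.97, 22.8 and 28.4 at day 6 and had -0.78 (SE 0.37, adjusted p = 0.20). Among 18 blood genes, 33.3% were called: 5 lower (Hba-a1, Tal1, Gata2 and Runx1 among them) and 1 higher (Myb). The other 12 were not called, and the median was -1.95. Tal1, which starts the blood programme, was at 1.2, 1.81 and 1.64 CPM in WT at day 0 and 51.3, 39.8 and 31.5 at day 6. In Notch1-/- Tal1 was at 0.575, 1.15 and 0.802 at day 0 and 1.59, 0.468 and 3.04 at day 6, with -3.71 (SE 0.71, adjusted p = 0.0058), and Runx1 had -2.28 (SE 0.49, adjusted p = 0.011). Embryonic globin Hbb-bh1 was at 94.9, 49.1 and 11.5 CPM in WT at day 6 and at 0.009, 0 and 3.27 in Notch1-/-; with such spread and no counts in WT at day 0 it was not called, and its fitted change is no measure of size.

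Genes of cardiac precursors, at which the differentiation protocol aims, were mostly lower where called. Of 18 tested, 44.4% were called: 7 lower (Tbx20, Bmp2, Mef2c, Tbx5, Gata5, Wnt2 and Isl1) and 1 higher (Tdgf1). The other 10 were not called, and the median was -1.32. Bmp2, Wnt2 and Tdgf1 are counted in other lists too. The 8 calls became 4 without the 2 libraries highest in fibroblast genes. Tbx20, a T-box factor of the heart fields (chr9:24525260-24580612), stood at 1.32, 2.12 and 1.44 CPM in WT at day 0 and 322, 287 and 187 at day 6. In Notch1-/- Tbx20 was at 7.24, 11.1 and 15.2 at day 0 and 30.99, 29.6 and 6.98 at day 6. It rose in WT by 7.35 and its change in Notch1-/- was 1.01, from a day 0 level at which all Notch1-/- libraries were above all WT libraries, an interaction of -6.34 (SE 0.68, adjusted p = 0.00023). Isl1, a factor of the second heart field, was at 1.76, 1.11 and 1.18 CPM in WT at day 0 and 57.7, 59.7 and 43.4 at day 6. In Notch1-/- Isl1 was at 0.645, 0.598 and 0.722 at day 0 and 6.44, 7.77 and 1.73 at day 6; it rose in both genotypes and by less in Notch1-/-, with -2.29 (SE 0.59, adjusted p = 0.025). Nkx2-5, the classical cardiac factor, stayed under 1.1 CPM in every library and had -1.86 (SE 0.71, adjusted p = 0.12). By the direction of their calls, sarcomere genes did not follow the precursors. Their summed level was 506 to 679 CPM in WT at day 0 and 1139 to 1286 at day 6. In Notch1-/- it was 431 to 615 CPM at day 0 and 705 to 791 at day 6. By that sum every Notch1-/- day 6 library lay below every WT day 6 library. Of 17 tested, 47.1% were called: 6 higher (Actn2, Acta1, Myl2, Myl7, Ttn and Ldb3) and 2 lower (Tnni1 and Nppb). The other 9 were not called, and the median was 0.36. Most of these levels were low: Myl7, the atrial light chain, was at 2.89, 3.997 and 2.61 CPM in WT at day 0 and 1.23, 1.11 and 1.18 at day 6. In Notch1-/- Myl7 was at 5.26, 4.097 and 2.66 at day 0 and 18.8, 5.55 and 7.63 at day 6, with 2.84 (SE 0.58, adjusted p = 0.0082), and Tnnt2, cardiac troponin T, did not exceed 3.4 CPM in any library and had -0.54 (SE 0.68, adjusted p = 0.67). Of 17 smooth muscle genes, 23.5% were called, beside 11.3% of all loci. In the interaction 2 were higher (Itga8 and Cnn1) and 2 lower (Acta2 and Prdm6), with a median of 0.07. Prdm6 lost its call without WT day 0 replicate 1 or 3, any WT day 6 library, Notch1-/- day 0 replicate 1 (0.20) or Notch1-/- day 6 replicate 2 or 3. Acta2, smooth muscle actin, was at 66.2, 42.95 and 152 CPM in WT at day 0 and 375, 458 and 319 at day 6. In Notch1-/- Acta2 was at 19.9, 52.5 and 47.9 at day 0 and 3.35, 3.75 and 6.13 at day 6, with -5.33 (SE 0.65, adjusted p = 0.00041).

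Called genes of neural crest were mostly lower. Of 14 crest genes tested, 57.1% were called: 7 lower (Ednrb, Dlx5, Snai2, Twist1, Ngfr, Sox9 and Tfap2b) and 1 higher (Sox10). The other 6 were not called, and the median was -2.02. Ednrb, the endothelin receptor of migrating crest, stood at 0.241, 0.222 and 0.228 CPM in WT at day 0 and 12.7, 12.8 and 10.6 at day 6. In Notch1-/- Ednrb was at 0.218, 0.229 and 0.561 at day 0 and 0.261, 0.164 and 0.305 at day 6. Only WT day 6 was above 1 CPM, an interaction of -6.16 (SE 0.53, adjusted p = 7.9e-05). Snai2, a repressor of E-cadherin, was at 7.09, 3.204 and 17.2 CPM in WT at day 0 and 71.3, 63.4 and 54.1 at day 6. In Notch1-/- Snai2 was at 2.41, 12.5 and 18.6 at day 0 and 1.98, 1.57 and 1.11 at day 6, with -5.63 (SE 0.94, adjusted p = 0.0026); its day 0 levels followed the fibroblast list in both genotypes. Twist1 was at 7.81, 13.97 and 8.45 CPM in WT at day 0 and 135, 168 and 104 at day 6. In Notch1-/- Twist1 was at 5.09, 14.3 and 18.3 at day 0 and 15.7, 17.2 and 4.996 at day 6, with -3.75 (SE 0.68, adjusted p = 0.0046). In the list of the switch between epithelium and mesenchyme, 31.6% of 19 were called. Lower were 5 (Tgfb2, Twist2, Snai2, Twist1 and Zeb1), and 1 was higher (Cdh1). The other 13 were not called, and the median was -0.58. Tgfb2, a ligand that drives the switch, was at 9.88, 6.14 and 8.51 CPM in WT at day 0 and 318, 304 and 266 at day 6. In Notch1-/- Tgfb2 was at 3.43, 3.44 and 4.28 at day 0 and 9.34, 18.7 and 6.15 at day 6. The WT day 6 libraries lay above 260 CPM and the others below 19, an interaction of -3.56 (SE 0.46, adjusted p = 0.00055). Snai1 (0.54, SE 0.49, adjusted p = 0.54) and Cdh2 (0.12, SE 0.36, adjusted p = 0.87), both tied to the streak as well, were not called.

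Visceral endoderm is the tissue that surrounds and feeds the early embryo. Of its 26 genes tested, 38.5% were called: 9 lower (Apob, Rbp4, Plat, Apoa1, Lamb1, Ttr, Sparc, Afp and Fxyd3) and 1 higher (Lrp2). The other 16 were not called, and the median was -1.21. Apob, the scaffold of secreted lipoproteins, stood at 3.15, 2.21 and 2.15 CPM in WT at day 0 and 102, 148 and 137 at day 6. In Notch1-/- Apob was at 4.68, 3.06 and 2.72 at day 0 and 4.94, 8.05 and 11.96 at day 6, an interaction of -4.43 (SE 0.45, adjusted p = 0.00016). Ttr, the thyroid hormone carrier, was at 45.7 to 60.9 CPM in WT at day 6 and at 0.070 to 0.414 CPM in Notch1-/-, with -6.30 (SE 1.53, adjusted p = 0.020). The retinol carrier Rbp4 had -4.00 (SE 0.45, adjusted p = 0.00026). Lrp2 (megalin), an endocytic receptor of that tissue and of neuroepithelium, went the other way and was at 84.5, 84.6 and 123 CPM in WT at day 0 and 33.9, 26.4 and 30.9 at day 6. In Notch1-/- Lrp2 was at 32.1, 58.02 and 41.7 at day 0 and 143, 145 and 408 at day 6, with 4.08 (SE 0.52, adjusted p = 0.00056). Of 12 tested genes of definitive endoderm 2 were called, Pyy and Kitl, both lower (16.7%, near the 11.3% of all loci), and the count moved to 1 or 4 on leaving out single libraries (1 without WT day 0 replicate 3, WT day 6 replicate 2 or 3, or Notch1-/- day 6 replicate 2 or 3, and 4 without Notch1-/- day 0 replicate 1).

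**Figure D5:**
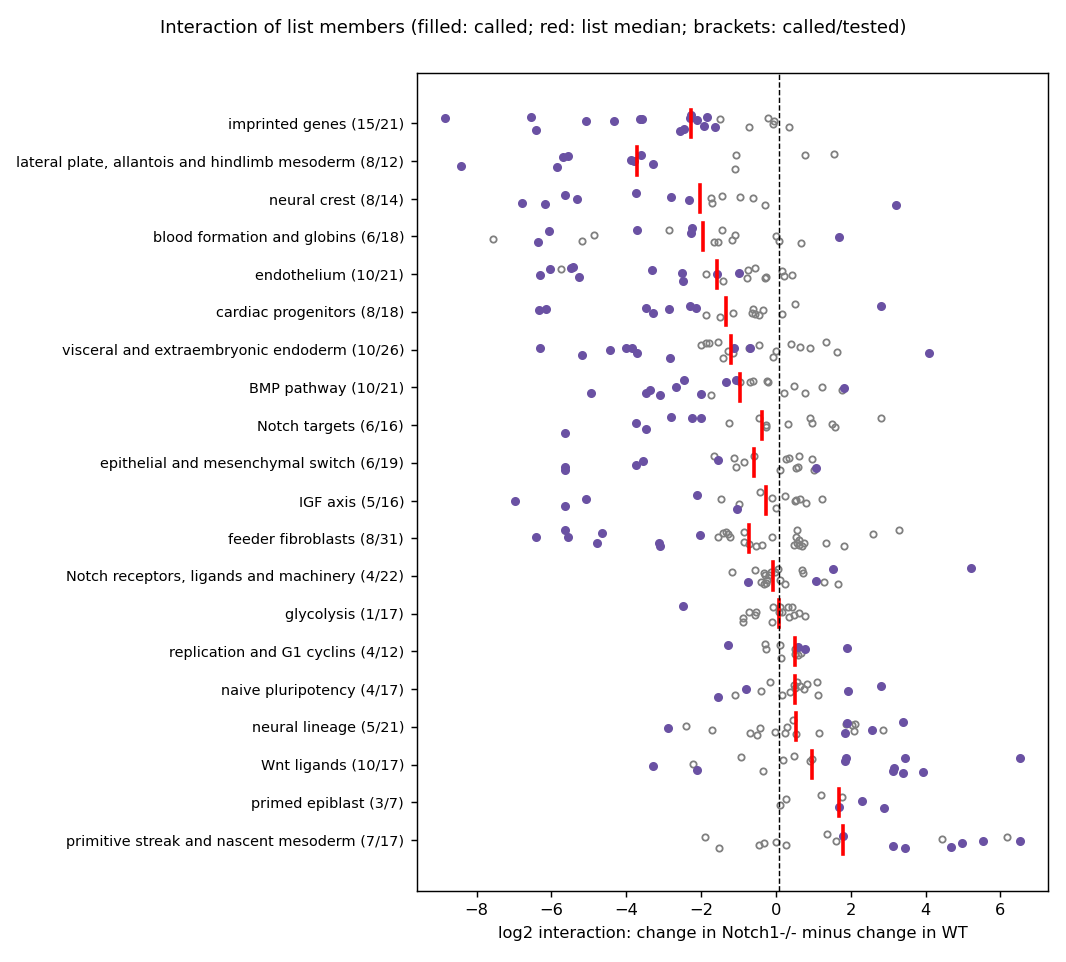
Log2 interaction (x axis) of each tested member of 20 gene lists; filled points are called, open points are not, red bars are list medians and the dashed line is the median of all loci tested, 0.08. Lists at the top (imprinted genes down to the BMP pathway) have medians of -0.95 or lower, and those at the bottom (Wnt ligands, primed epiblast, primitive streak) of 0.96 or higher.

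Among other large negative interactions, Capn6, a calpain-like protein of placenta and muscle, stood at 2.71, 2.21 and 2.26 CPM in WT at day 0 and 853, 855 and 509.6 at day 6. In Notch1-/- Capn6 was at 9.997, 1.6 and 5.34 at day 0 and 57.7, 36.8 and 12.1 at day 6; it rose in both genotypes, to over 500 CPM in WT, with -5.62 (SE 0.84, adjusted p = 0.0014). Adam12, a metalloprotease of mesenchyme, was at 2.93, 3.03 and 9.898 CPM in WT at day 0 and 34.8, 36.6 and 28.01 at day 6. In Notch1-/- Adam12 was at 2.21, 7.74 and 8.502 at day 0 and 0.279, 0.499 and 0.357 at day 6, with -6.66 (SE 0.79, adjusted p = 0.00036). Nr2f2 (COUP-TFII), a nuclear receptor of veins and mesenchyme, was at 4.36, 7.38 and 9.54 CPM in WT at day 0 and 14.5, 13.8 and 10.3 at day 6. In Notch1-/- Nr2f2 was at 7.62, 13.9 and 27.4 at day 0 and 0.396, 0.687 and 0.663 at day 6. In Notch1-/- its day 0 levels followed the fibroblast list and all 3 day 6 libraries were below every other library, with -5.66 (SE 0.63, adjusted p = 0.00025). Dnaaf1, which assembles dynein arms of cilia, was at 2.91, 3.88 and 3.01 CPM in WT at day 0 and 29.8, 36.2 and 47.5 at day 6. In Notch1-/- Dnaaf1 was at 26.04, 48.2 and 58.9 at day 0 and 9.41, 7.61 and 1.91 at day 6. It was high in WT day 6 and in Notch1-/- day 0 and low in the other groups, so the genotypes crossed over, with -6.35 (SE 0.69, adjusted p = 0.00023). Vegfa, the endothelial growth factor, was the 1 called gene of 17 in the glycolysis and hypoxia list (5.88%, below the 11.3% of all loci). It stood at 223, 309 and 180.5 CPM in WT at day 0 and 388, 347 and 366 at day 6. In Notch1-/- Vegfa was at 267, 234 and 269.7 at day 0 and 97.2, 36.96 and 77.9 at day 6, with -2.49 (SE 0.40, adjusted p = 0.0021); the list's median was 0.08, and 2 members were called without WT day 0 replicate 1 or 2.

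FGF signalling was mixed. Of 19 genes tested, 31.6% were called, 3 higher (Etv5, Fgf5 and Fgf1) and 3 lower (Fgfr3, Fgfr2 and Fgf7). The other 13 were not called. Etv5, a target of FGF in stem cells, was at 442, 658 and 553 CPM in WT at day 0 and 183, 182 and 201 at day 6. In Notch1-/- Etv5 was at 306, 268 and 237 at day 0 and 213, 258 and 308 at day 6; it fell in WT and its change in Notch1-/- was -0.06, with 1.49 (SE 0.24, adjusted p = 0.0021). Fgfr2 had -2.05 (SE 0.44, adjusted p = 0.011). Of 13 hedgehog genes 3 were called (23.1%, beside 11.3% of all loci). Ihh, a ligand made by visceral endoderm, was lower with -4.30 (SE 0.44, adjusted p = 0.00016). Shh was lower too, and only 1 gene was called without WT day 0 replicate 3, WT day 6 replicate 1 or 2, Notch1-/- day 0 replicate 2 or 3 or Notch1-/- day 6 replicate 2 or 3. In the Nodal list, Nodal and Tdgf1 were called higher and Smad2 lower, of 11 tested (27.3%, beside 11.3% of all loci). The count was 2 to 6 on leaving out any 1 library, with 6 without Notch1-/- day 0 replicate 1. It was 2 without the 2 day 0 libraries highest in fibroblast genes. Smad2 lost its call without WT day 0 replicate 3, any WT day 6 library, or Notch1-/- day 6 replicate 1 or 3. Among 13 p53 and apoptosis genes, 7.69% were called, below the 11.3% of all loci. The only called gene was Pmaip1 (Noxa), which promotes cell death (2 genes without Notch1-/- day 0 replicate 1). It stood at 82.1, 119 and 70.5 CPM in WT at day 0 and 50.8, 53.3 and 58.8 at day 6. In Notch1-/- Pmaip1 was at 329, 239 and 364 at day 0 and 549, 578 and 480.2 at day 6; all Notch1-/- libraries were above all WT libraries on both days, and its interaction was 1.52 (SE 0.28, adjusted p = 0.0044). Replication genes gave 3 of 12 called higher (Ccne1, Mcm2 and Mcm4) and 1 lower (Ccnd3), 33.3% in all, with a median of 0.52. The count was 2 without WT day 6 replicate 1 and 1 without the libraries highest in fibroblast genes. Mcm4 was not called with upper quartile scaling (0.057), RLE scaling (0.11), no filter (0.068) or DESeq2 (0.076), nor on leaving out any 1 library other than WT day 0 replicate 1 or Notch1-/- day 6 replicate 1. Ccne1, cyclin E, had 1.90 (SE 0.40, adjusted p = 0.0093). Among 22 germline genes, Dmrt1 was called higher and Sycp1 and Dppa3 lower (13.6%, near the 11.3% of all loci). Dppa3 lost its call without WT day 6 replicate 1 or 2, Notch1-/- day 0 replicate 3 or Notch1-/- day 6 replicate 1 or 3. The list had 6 called without WT day 0 replicate 2 or Notch1-/- day 0 replicate 1 and 5 without Notch1-/- day 0 replicate 2. In the chromatin list, Tet1 and Dnmt3b were higher, and the Polycomb protein Cbx8 (-3.12, SE 0.33, adjusted p = 0.00022) and the demethylase Tet3 (-1.35, SE 0.19, adjusted p = 0.0011) lower; in the FPKM table the direction of Tet3 reverses (1.08).

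Noncoding and unannotated loci took part in both directions. Miat, a long noncoding RNA of neurons and stem cells, stood at 16.2, 13.96 and 14.6 CPM in WT at day 0 and 0.993, 1.07 and 2.45 at day 6. In Notch1-/- Miat was at 8.13, 23.5 and 11.2 at day 0 and 15.1, 16.6 and 61.96 at day 6, an interaction of 4.43 (SE 0.80, adjusted p = 0.0042). Mir124a-1hg, the host of a neuronal microRNA, was at 9.52, 25.4 and 10.9 CPM in WT at day 0 and 1.03, 1.07 and 1.02 at day 6. In Notch1-/- Mir124a-1hg was at 9.75, 26.7 and 9.09 at day 0 and 10.9, 18.3 and 17.5 at day 6. Its WT day 6 libraries were all near 1 CPM and the other 9 at 9 CPM or more, with 3.91 (SE 0.64, adjusted p = 0.0024). Snhg11, a noncoding RNA of neurons, had 1.98 (SE 0.35, adjusted p = 0.0041). On the lower side, C430049B03Rik (mm9, chrX:50404144-50410402) was at 1.595, 3.24 and 1.53 CPM in WT at day 0 and 99.8, 96.7 and 66.5 at day 6. In Notch1-/- C430049B03Rik was at 1.87, 2.79 and 2.32 at day 0 and 4.73, 3.67 and 2.19 at day 6, with -4.77 (SE 0.48, adjusted p = 0.00016). Fendrr, a noncoding RNA of lateral plate mesoderm, rose in both genotypes and was not called (-1.08, SE 0.65, adjusted p = 0.32). Of the 2708 called loci, 570 were not linked to a gene. The one with the most negative interaction among those separated and above the level set for naming, at mm9 chrX:61749596-61751978 (strand not given), was at 68.1, 72.7 and 93.9 CPM in WT at day 0 and 227, 234 and 222 at day 6. In Notch1-/- the locus was at 2.66, 11.9 and 15.4 at day 0 and 0.504, 0.297 and 0.261 at day 6, with -6.37 (SE 0.69, adjusted p = 0.00023). On the higher side, the locus at chr4:124334889-124343464 (plus strand) was at 15.9, 40.8 and 58.7 CPM in WT at day 0 and 2.01, 2.38 and 3.64 at day 6. In Notch1-/- the locus was at 16.6, 22.8 and 29.7 at day 0 and 29.5, 29.3 and 101 at day 6. It was low only in WT at day 6, with 5.05 (SE 0.76, adjusted p = 0.0015), and the locus at chr4:124200184-124334583 (minus strand) had 4.76 (SE 0.67, adjusted p = 0.0010).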

How the data were processed

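RNA-seq of 12 samples was used: WT and Notch1-/-, day 0 and day 6, 3 samples each. Per the labels' protocols, poly(A) RNA from Trizol extracts was sequenced in paired reads on an Illumina HiSeq. The genome mm9 and the tools TopHat2 2.0.8, HTSeq 0.5.4p3, Cufflinks 2.1.1 and DESeq stand in the submitters' processing notes. The authors deposited whole-number read counts per locus (htseq-count), which were tested and in which loci that lie wholly within others are at 0, and FPKM values per locus, which the authors deposited beside them and which are normalized for length and depth; a depth cannot be read from FPKM. The count table holds no line for unassigned reads, and 0 other columns of per-sample values were left out.

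Counts were fitted in edgeR 4.0.16 (R 4.3.3; TMM, filterByExpr, quasi-likelihood, 1 mean per group, Benjamini-Hochberg over 23991 loci); SE is the size of the fitted value over the root of F. FPKM values were fitted in limma 3.58.1. Deposited loci carry no gene names: of 40039 loci, 19294 were linked to 1 gene and 1507 to several by matching their intron and exon lengths to an annotation of GRCm38, where 88 loci matched when all lengths were changed by 7 bases. Gene coordinates are those of the deposited mm9 models. Rtl1, Peg10, Hoxd13, Hoxd12, Hoxb1, Twist1, Twist2, Sox7, Sox18, Cldn5, Mixl1, Mesp1, Nr0b1, Hottip and Dnm3os were named from 1 length only.

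Named genes were the 15 loci with the greatest interaction per direction among those called, separated and at a mean log2 CPM of at least 2, up to 5 called members per list (2 in lists with fewer than 3 calls), 4 noncoding and 3 unlinked loci per direction, and the 10 most abundant called loci; other genes named are list members. The members and the 33 lists (649 genes, 500 tested) were chosen with earlier results of these data known. The fit was checked on simulated counts. Alternatives were upper quartile and RLE scaling, other filters, DESeq2 1.42.0, FPKM with pseudocounts of 1 and 0.1, a replicate block and leaving out libraries. Some members of the lists are counted but not reported here by name.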

Additional observations from a re-analysis of the deposited data

Results flagged for a closer look

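Each result below was picked because the change over 6 days differed between the genotypes by the interaction test (edgeR quasi-likelihood, Benjamini-Hochberg, adjusted p under 0.05). By that test, 1527 loci had a higher change in Notch1-/- than in WT and 1181 a lower one.

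The genes below are the 15 in each direction with the greatest log2 interactions among called loci with 1 gene symbol (clone, Gm, Rik and pseudogene names aside), separated replicates and a mean level not under 2 in log2 CPM; genes outside those limits, such as Hoxb1 and Pitx1, can have greater ones. On the higher side, Wnt8a had 6.51, Kcnj3 5.79, Slc27a2 5.74 and Dll1 5.20. Mmp25 followed with 4.47, Miat with 4.43, Apln with 4.28 and Lrp2 with 4.08. Nfasc had 3.92, Mir124a-1hg 3.91, Fam57b 3.86 and Enpp2 3.84. Actn3 and Cntn2 had 3.78 and 3.78, and Ppp4r4 3.65.

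On the lower side, H19 had -8.83, Eif2s3y -6.99, Igfbp5 -6.97 and Adam12 -6.66. Dlk1 had -6.55, Postn -6.42, Ddx3y -6.35, Dnaaf1 -6.35 and Tbx20 -6.34. Hoxd13 followed with -5.86, Tbx4 with -5.70 and Nr2f2 with -5.66. Twist2 (-5.64), Snai2 (-5.63) and Capn6 (-5.62) closed the group.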

How the results depend on the processing

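The 2708 calls (1527 higher, 1181 lower) became 1411 (704 higher, 707 lower) with only loci of a mean log2 CPM of at least 2, 4098 with DESeq2 (1969 higher, 2129 lower), and 1500 (809 higher, 691 lower) without the 2 day 0 libraries highest in fibroblast genes, an alternative chosen after seeing the data. Leaving out 1 library gave 1434 to 3943 calls, 747 to 2215 of them higher and 687 to 1728 lower. A fit with replicate number as a block (replicate block) gave 3230 calls, 1836 higher and 1394 lower. Same-numbered samples correlated in their deviations from the group means at -0.0323 to 0.398 over 18 pairs, 12 of them over 0.1 (median 0.126), against 2 of 36 pairs with other numbers (median -0.0501). All 3 same-numbered pairs were over 0.1 between the day 0 groups and between WT day 0 and Notch1-/- day 6, and not between the other groups. The labels give the numbers no shared origin and not every pair passed, so the samples were not treated as paired; a shared origin of some is a hint from the data. The number of calls stayed within 1.5 times with other scalings, no filter on low counts and FPKM values. It did so too without loci that share at least 50% of exon length. But more loci were lower than higher with RLE scaling (1322 higher, 1409 lower) and with FPKM and a pseudocount of 1 (1323 and 1516). Which loci were called changed more with FPKM values. Of the 2708, 1702 were also called with a pseudocount of 1 and 1908 with 0.1. With RLE scaling 2503 were called again, and with upper quartile scaling 2647. Of 155 named loci, 152 were called; 130 of those kept their call when any 1 library was left out, and 111 under every alternative. Directions reversed with FPKM values: Igf2 had 5.70 with a pseudocount of 1 and 9.03 with 0.1, Peg10 4.08 and 6.29, Tet3 1.08 and 3.01, and Rtl1 0.20 with 0.1. Igf2 is listed at 0 in WT at day 6 in that table; for the others the cause was not tested. Between the pseudocounts of 1 and 0.1, the FPKM-based interactions of Evx1, Evx1os and Rtl1, none called, changed sign to -0.36, -0.51 and 0.20.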

Other observations

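Some of the called loci with the highest mean level have not been described so far. Zfp106, a zinc finger RNA-binding protein, stood at 900.2, 1011 and 944 CPM in WT at day 0 and 618, 617 and 622 at day 6. In Notch1-/- Zfp106 was at 1118, 1069 and 926 at day 0 and 932, 990.0 and 982 at day 6, with an interaction of 0.52 (SE 0.15, adjusted p = 0.041) in edgeR. Mdn1, a factor of ribosome assembly, had 1.13 (SE 0.32, adjusted p = 0.040), and L1td1, an RNA-binding protein of stem cells, 1.78 (SE 0.48, adjusted p = 0.030). Aplp2, a relative of the amyloid precursor, had 0.64 (SE 0.16, adjusted p = 0.021). The calls of Zfp106, Mdn1, L1td1 and Aplp2 were each lost on leaving out any 1 of at least 6 libraries, WT day 6 replicates 1 and 2 among them, and that of Sept2, a septin (-0.91, SE 0.16, adjusted p = 0.0040), was kept in each such fit.

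Some unlinked and noncoding loci not described above were called as well. C330024D21Rik (mm9, chr5:67854980-67901483) stood at 44.96, 51.6 and 52.4 CPM in WT at day 0 and 61.1, 55.5 and 45.2 at day 6. In Notch1-/- C330024D21Rik was at 9.76, 0.906 and 13.03 at day 0 and 0.162, 0.133 and 0.6701 at day 6, with -4.71 (SE 1.03, adjusted p = 0.012), no longer called (0.065) without the 2 day 0 libraries highest in fibroblast genes. Gm2762 (chr13:53488986-53550999) had 3.54 (SE 0.60, adjusted p = 0.0029). The unlinked loci at mm9 chr8:25546074-25553783 (minus strand) and chr8:80537788-80628868 (plus strand) had -3.34 (SE 0.54, adjusted p = 0.0022) and 3.75 (SE 0.47, adjusted p = 0.00046).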
